A study of Mus musculus with 16 samples.

Results

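Cytosine methylation in mouse cells is written, copied and removed by a small set of enzymes, and 9 of their genes were followed here: Dnmt1, Uhrf1, Dnmt3a, Dnmt3b, Dnmt3l, Tet1, Tet2, Tet3 and Tdg. They were taken by symbol from a table of 31663 gene entries, and all 9 were found. The RNA came from mouse stem cells that were grown singly or assembled into embryo-like structures. Induced pluripotent stem cells (iPSC, GFP+) and trophectoderm stem cells (TSC, RFP+) were either kept apart or mixed, and mixed cells formed structures in which a green part came from the iPSC and a red part from the TSC. Those parts were picked and separated by hand, and each part or single colony became 1 library by the Smart-seq2 protocol. The 8 groups, with 2 libraries each, were therefore the assembled TSC part, TSC alone, the assembled iPSC part and iPSC alone, each with and without BMP4. All groups shared 5% Matrigel, 12.5 ng/ml FGF4 and 500 ng/ml heparin, and all were collected on day 3 after a last 24 hours with or without BMP4, whose dose is not given in the sources used here. Whether the 2 libraries of a group were separate cultures is not stated in the labels, and the p-values below measure only the spread between these libraries. Each library holds the RNA of a whole colony or part, so fewer cells of a type and less RNA per cell cannot be told apart.

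Dnmt1, the maintenance methyltransferase, copies methylation onto the new strand after replication, and Uhrf1 brings it to hemimethylated sites. Dnmt3a and Dnmt3b set methylation de novo, and Dnmt3l, which has no catalytic activity of its own, stimulates them. The TET enzymes (Tet1, Tet2, Tet3) oxidise 5-methylcytosine, and Tdg, a DNA glycosylase, excises the oxidised bases so that base excision repair can put back an unmethylated cytosine. In the mouse embryo the pluripotent epiblast carries high Dnmt3b and gains methylation around implantation, whereas the trophoblast lineage stays less methylated. None of the values here measures methylation itself.

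Promoter sequence is shown for 3 genes for which TSC alone stood at an end of the series, Dnmt3b and Tet1, which were lowest there, and Tet3, which was highest there. The RefSeq table (build GRCm38.p6) holds entries for all 9 genes, 16 of its 32851 promoters. The submitters' processing notes name mm9 for the mouse, so these coordinates belong to GRCm38.p6 and to no file of the series. Each line gives the 250 bases upstream of the start, 5′ to 3′ on the gene's strand, with every CpG, the pair of letters the enzymes act on, in capitals.
Dnmt3b: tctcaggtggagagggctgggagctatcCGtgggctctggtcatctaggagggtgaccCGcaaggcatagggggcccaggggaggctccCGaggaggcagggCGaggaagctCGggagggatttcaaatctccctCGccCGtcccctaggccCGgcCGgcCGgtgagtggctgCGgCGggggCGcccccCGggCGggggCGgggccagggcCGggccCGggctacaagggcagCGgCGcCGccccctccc
Tet1: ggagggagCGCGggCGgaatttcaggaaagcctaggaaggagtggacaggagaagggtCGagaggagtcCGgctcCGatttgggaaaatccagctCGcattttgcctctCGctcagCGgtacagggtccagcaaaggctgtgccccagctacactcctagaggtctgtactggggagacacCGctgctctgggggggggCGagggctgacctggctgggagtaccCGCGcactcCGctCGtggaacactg
Tet3: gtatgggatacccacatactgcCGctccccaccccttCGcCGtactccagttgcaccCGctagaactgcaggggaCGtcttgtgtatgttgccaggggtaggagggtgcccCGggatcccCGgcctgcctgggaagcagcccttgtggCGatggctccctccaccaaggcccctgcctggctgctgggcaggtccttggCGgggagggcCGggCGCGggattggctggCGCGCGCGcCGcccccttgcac
The Dnmt3b window lies at chr2:153649199-153649448 on the + strand, the Tet1 window at chr10:62887325-62887574 on the - strand and the Tet3 window at chr6:83441679-83441928 on the - strand. Dnmt3b holds 21 CpG, Tet1 15 and Tet3 17, where the median promoter of the table holds 6. A GC box, searched as GGGCGG on both strands, occurs 3 times in the Dnmt3b window and 1 time each in those of Tet1 and Tet3, and 32.74% of all promoters of the same length hold one. The BMP response element core, searched as GGCGCC, occurs 2 times in the Dnmt3b window and in neither of the other windows, against 9.586% of all promoters. Matches that overlap each other were counted separately, and a match is a description of letters.

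The libraries carried the markers of their labels unevenly. Pou5f1, Nanog, Tdgf1 and Dppa5a, which mark pluripotent cells, were high in all iPSC libraries, while Utf1 and Sox2 did not separate the lineages. Utf1 was highest in replicate 1 of the assembled TSC part (724 FPKM), against at most 541 FPKM in iPSC-origin libraries. Sox2 reached at most 3.34 FPKM in iPSC-origin libraries. It had 2.92 and 7.89 FPKM in TSC with BMP4 and 1.86 and 4.64 FPKM in the assembled TSC part, but 0 and 0.0540 FPKM in TSC alone. Its highest value was in replicate 1 of the assembled TSC part with BMP4. The 6 iPSC markers summed to 166 to 1086 FPKM in the 8 TSC-origin libraries and to 922 to 3842 FPKM in the 8 iPSC-origin libraries, and the 8 TSC markers to 417 to 6101 FPKM in TSC-origin libraries and 124 to 783 FPKM in iPSC-origin libraries. TSC alone had Krt8, Krt18, Gata3 (47.0 and 34.3 FPKM) and Tfap2c (140 and 99.4 FPKM) at their highest of the series. It had little Elf5 (5.51 and 11.6 FPKM), Cdx2 (0 and 3.89 FPKM) and Eomes (0.219 and 0.0844 FPKM). Esx1 stood at 29.4 and 78.2 FPKM there. A pair of libraries held markers of the other lineage: replicate 2 of the assembled TSC part (Pou5f1 at 13.2 FPKM, Dppa5a at 499 FPKM) and replicate 2 of the BMP4-treated assembled iPSC part (Elf5 at 50.4 FPKM). Replicate 1 of that iPSC part, outside the pair, had the higher sum of TSC markers, 532 against 450 FPKM. It was higher in Krt8 (324 against 107 FPKM), Gata3 (12.5 against 6.02 FPKM), Tfap2c and Cdx2. Replicate 2 was higher in Elf5 (50.4 against 0.193 FPKM), Esx1 (21.8 against 0.140 FPKM), Krt18 and Eomes. Leaving out the pair therefore does not remove TSC markers from that part. Replicate 2 of the assembled TSC part with BMP4, also outside the pair, was higher than its replicate 1 in the iPSC markers other than Sox2. It had Dppa5a at 43.5 against 8.29 FPKM, Tdgf1 at 4.49 against 0.271 FPKM and Pou5f1 at 2.10 against 0.137 FPKM. Replicate 2 of iPSC alone with BMP4, which is not in that pair, had the highest sum of TSC markers among iPSC-origin libraries, 783 FPKM, with Krt18 at 415, Krt8 at 320, Esx1 at 19.4 and Elf5 at 0.283 FPKM. Without it the calls between the lineages on average were kept. Calls were lost between cells cultured alone with BMP4, and with assembly of iPSC with BMP4 and over both media. In each of these comparisons calls were also lost without replicate 1 of the same group, so the losses were not particular to this library. The 9 endoderm and fibroblast markers summed to 0.557 to 3.87 FPKM. A difference of more than 2-fold between replicates occurred in 2083 genes in TSC alone, 1768 in the assembled iPSC part with BMP4 and 454 in iPSC alone. Depth is unknown, because the deposited FPKM (fragments per transcript length, relative to the mapped total) carry no counts.

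**Figure D1:**
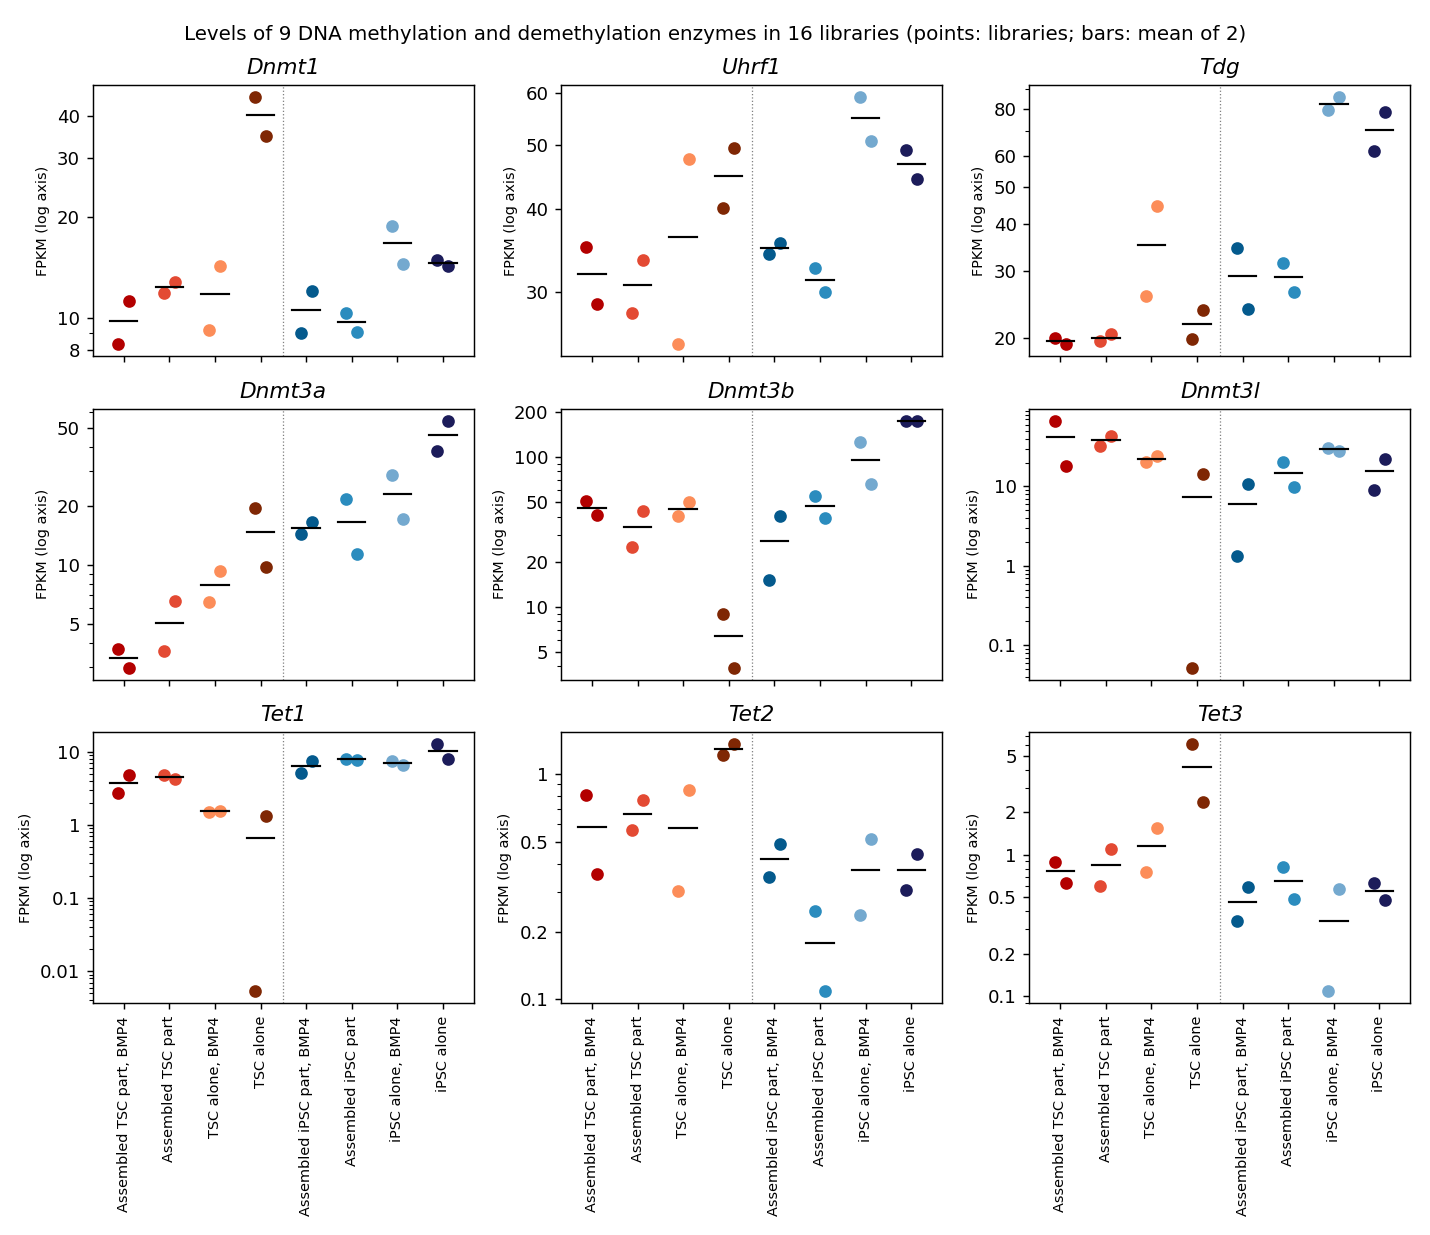
FPKM on log axes in each of the 16 libraries (points) with the mean of 2 (bars), TSC-origin groups left of the dotted line and iPSC-origin groups right of it. Dnmt1 was highest in TSC alone (45.4 and 34.9 FPKM), Dnmt3b was lowest there (8.90 and 3.92 FPKM), and all 8 TSC-origin libraries had less Tet1 than any iPSC-origin library.

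Cell type separated these genes most in the cells cultured alone. All 9 passed the filter of at least 1 FPKM in at least 2 libraries, and 7 of 9 differed between TSC alone and iPSC alone, 3 higher and 4 lower, where 36.4% of the 13406 genes tested did (limma on log2(FPKM + 1), Benjamini-Hochberg adjusted p under 0.05). With BMP4 on both, 3 of 9 differed, all lower in TSC, against 18.2% of all genes in either direction and 10.6% lower. Between the assembled parts 1 of 9 differed without BMP4, against 16.9% of all genes, and 1 of 9 with BMP4, against 10.1%, in both cases Dnmt3a. Averaged over these 4 differences, 6 of 9 differed between TSC-origin and iPSC-origin cells, 2 higher and 4 lower, against 48.8% of all genes. The higher genes were Tet3 (0.69 ± 0.18, limma adjusted p = 0.00621) and Tet2 (0.39 ± 0.13, limma adjusted p = 0.0235), and the lower were Dnmt3a (-1.62), Tet1 (-1.45 ± 0.19, limma adjusted p = 5.22e-05), Dnmt3b (-1.32 ± 0.23, limma adjusted p = 0.000466) and Tdg (-0.98 ± 0.14, limma adjusted p = 7.34e-05). Tet3 and Tet2 reached 1 FPKM in TSC-origin libraries alone, Tet3 in 4 of 16 and Tet2 in 2, so both entered the test through the lineage in which they were high, and their direction is partly fixed by the filter. Of the 6 calls, that of Tet2 was the only one lost under an alternative. It was lost without the pair of libraries with markers of the other lineage (adjusted p = 0.0546) and without any 1 of 5 libraries (adjusted p from 0.05 to 0.0587): replicate 1 of iPSC with BMP4 or of the assembled TSC part with BMP4, or replicate 2 of TSC with BMP4 or of either assembled part without it. The median difference of the 9 genes was -1.64 on the log2 scale in cells cultured alone and -0.22 averaged over the 4, where the median of all genes was -0.11 and -0.01.

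Some of the 9 genes differed with assembly in each lineage. In TSC, 6 of 9 differed between the assembled part and TSC alone, 3 in each direction, against 19.2% of all genes. With BMP4 on both, limma called 0 of 9, against 0.298% of all genes, and 3 of the 9 had an unadjusted p under 0.05. In iPSC, 3 of 9 were lower in the assembled part without BMP4, against 11.8% of all genes in either direction and 9.74% lower, and 2 of 9 with BMP4, against 5.72% and 4.84%. Averaged over both media, 5 of 9 were lower in assembled iPSC parts (Dnmt1, Uhrf1, Dnmt3a, Dnmt3b, Tdg), against 26.6% of all genes in either direction and 20.6% lower. After either rescaling 2 of the 5 passed, Dnmt3b and Tdg. Over both media 5 of 9 differed in assembled TSC parts, 2 higher (Dnmt3b, Tet1) and 3 lower (Dnmt1, Dnmt3a, Tet3), against 17.6%. In these means Dnmt3b was lost without any 1 of 6 of the 8 libraries (adjusted p from 0.0558 to 0.109), the exceptions being replicate 1 of TSC alone and of the assembled part. Tet3 was also lost without any 1 of 6 (0.0581 to 0.136), the exceptions being replicate 2 of TSC alone and replicate 1 of TSC with BMP4. Values of all genes lay lower in assembled iPSC parts, with a median of -0.19 without BMP4. Quantile normalization set that median to 0.00 and upper quartile rescaling to 0.02, and the calls among all genes were then 577 higher and 780 lower, or 774 and 713, in place of 279 and 1306.

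With BMP4 in TSC cultured alone, 3 of 9 genes differed, Dnmt3b higher and Dnmt1 and Tet3 lower, against 12.1% of all genes. limma called 0 of 9 in iPSC alone, where 0.0597% of all genes were called and 1 of the 9 had an unadjusted p under 0.05. It called 0 of 9 in the assembled iPSC part (0.00746% of all genes) and 0 of 9 in the assembled TSC part (0.500%), with none of the 9 under an unadjusted p of 0.05 in either. The mean of the 4 BMP4 differences called 0 of 9, against 1.40% of all genes, with 3 of the 9 under an unadjusted p of 0.05. The comparisons of TSC alone with its assembled part, with BMP4 and with iPSC alone share the same 2 libraries of TSC alone, so their differences are not independent of each other.

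**Figure D2:**
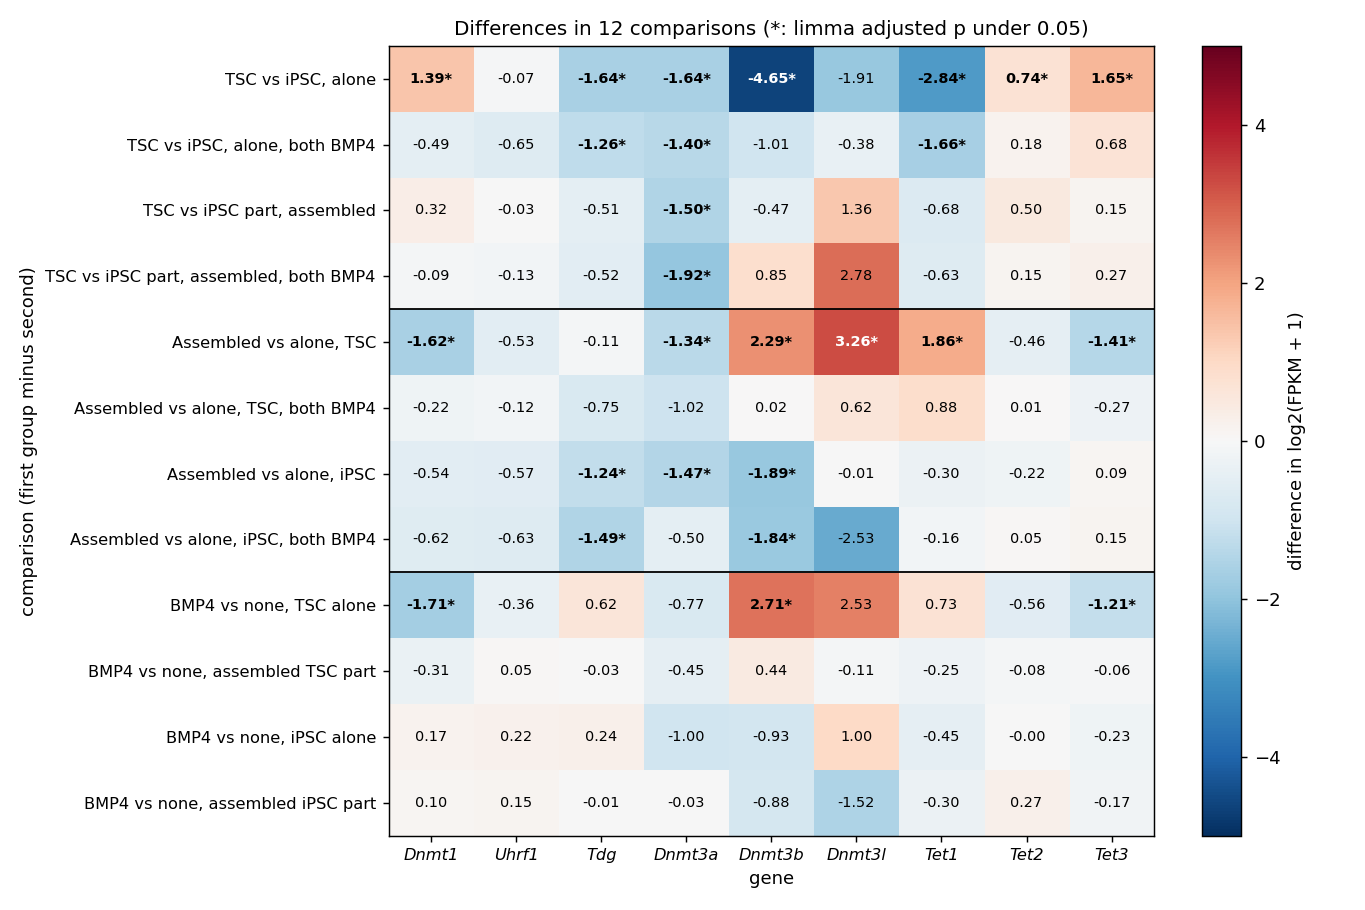
Differences in log2(FPKM + 1) of the 9 genes (columns) in 12 comparisons (rows), first group minus second, with an asterisk where the limma adjusted p is under 0.05. The darkest cell is Dnmt3b in TSC against iPSC alone at -4.65, and most asterisks lie in rows that contain TSC alone.

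Dnmt1, the maintenance methyltransferase, stood highest in TSC alone. It had 45.4 and 34.9 FPKM in TSC alone, against 14.8 and 14.2 FPKM in iPSC alone. The other TSC-origin libraries lay far lower, at 9.19 and 14.3 FPKM in TSC with BMP4, 11.9 and 12.8 FPKM in the assembled TSC part and 8.35 and 11.2 FPKM in the assembled TSC part with BMP4. Both libraries of TSC alone therefore exceeded each of the other 14 in the series. In TSC alone Dnmt1 was higher than in iPSC alone by 1.39 ± 0.27 on the log2 scale (SE, limma adjusted p = 0.0017). It fell with assembly of TSC (-1.62 ± 0.27, limma adjusted p = 0.00212) and with BMP4 in TSC alone (-1.71 ± 0.27, limma adjusted p = 0.00225). The first call held without any 1 library, as did the others, while fits of only the 4 libraries compared gave adjusted p = 0.0782 for assembly and 0.188 for BMP4.

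In iPSC the levels of Dnmt1 lay closer together. They were 9.01 and 12.0 FPKM in the assembled part with BMP4 and 10.3 and 9.10 FPKM in that without, against 18.8 and 14.5 FPKM in iPSC with BMP4 and 14.8 and 14.2 FPKM in iPSC alone. The 4 assembled libraries all lay below the 4 cultured alone, and the mean difference was -0.58 ± 0.19 (limma adjusted p = 0.0412). Rescaling ended this call, with adjusted p = 0.324 after quantile normalization and 0.327 after upper quartile rescaling. It was also lost without any 1 of 7 of the 8 libraries, at adjusted p from 0.0546 to 0.149, the exception being replicate 2 of the assembled part with BMP4.

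Uhrf1, the partner that recruits Dnmt1, had the narrowest range of the 9 relative to its level. It ran from 25.0 to 59.1 FPKM over the 16 libraries, and in TSC alone it had 40.2 and 49.6 FPKM, against 49.3 and 44.4 FPKM in iPSC alone, where the groups overlapped. Its 1 call was in assembled iPSC parts, which had 34.2, 35.6, 32.7 and 30.0 FPKM, against 59.1, 50.7, 49.3 and 44.4 FPKM in iPSC cultured alone. The ranges did not overlap, and the mean difference was -0.60 ± 0.19 (limma adjusted p = 0.035). After quantile normalization the difference was -0.29 with adjusted p = 0.253, and the call was lost without any 1 of the 8 libraries, at adjusted p from 0.0571 to 0.116. The ratio of Uhrf1 to Dnmt1 FPKM was 0.885 and 1.42 in TSC alone, and between 2.35 and 4.20 in the other 14 libraries.

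Dnmt3b, the main de novo enzyme of the early mouse embryo, gave the largest difference among the 9 genes. It had 8.90 and 3.92 FPKM in TSC alone, against 174 and 174 FPKM in iPSC alone. These groups lay at the bottom and at the top of the series, and the difference was -4.65 ± 0.46 (limma adjusted p = 2.23e-05), at -4.14 or beyond without any 1 library. With BMP4, TSC alone had 40.1 and 49.7 FPKM, against 125 and 66.0 FPKM in iPSC alone with BMP4, a difference of -1.01 that did not pass (limma adjusted p = 0.148). The assembled TSC part had 25.2 and 43.3 FPKM without BMP4 and 50.4 and 40.7 FPKM with it. The assembled iPSC part had 55.2 and 38.8 FPKM without BMP4 and 15.0 and 40.1 FPKM with it. The assembled parts therefore overlapped without BMP4, and no difference in Dnmt3b between them passed (-0.47 and 0.85 without and with BMP4, limma adjusted p = 0.537 and 0.281).

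Within TSC, Dnmt3b rose with assembly without BMP4 by 2.29 ± 0.46 (limma adjusted p = 0.00562). With BMP4 in TSC alone it rose by 2.71 ± 0.46 (limma adjusted p = 0.00345). With BMP4 on both, the assembled part and TSC alone averaged 45.5 and 44.9 FPKM, a difference of 0.02 (limma adjusted p = 0.998). Every TSC-origin library outside TSC alone had at least 25.2 FPKM, above both libraries of TSC alone. Without replicate 2 of the assembled TSC part, the library with iPSC markers, the rise with assembly was 1.91 (limma adjusted p = 0.0528). A fit of only the 4 libraries compared gave adjusted p = 0.102 for assembly and 0.177 for BMP4. In iPSC, Dnmt3b fell with assembly, with differences of -1.89 ± 0.46 without BMP4 (limma adjusted p = 0.0217) and -1.84 ± 0.46 with BMP4 (limma adjusted p = 0.0389). These calls were lost without any 1 library of iPSC alone (adjusted p = 0.105 and 0.121) or of the assembled part (0.0528 and 0.176), and with BMP4 without either library of iPSC with BMP4 (0.254 and 0.115) or replicate 1 of the assembled part with BMP4 (0.225). Upper quartile rescaling gave adjusted p = 0.0515 and 0.0977. The mean of both was -1.86 ± 0.33 (limma adjusted p = 0.0019) and passed under every alternative run.

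The direction of the Dnmt3b change with assembly thus differed between the lineages without BMP4. With BMP4 the change was -1.84 in iPSC and 0.02 in TSC. Averaged over both media, the assembly effect in TSC exceeded that in iPSC by 3.02 ± 0.46 (limma interaction, adjusted p = 0.00754), and this passed in every alternative run. Of the 9 genes, 2 had such an interaction, both positive, against 4.15% of all genes. The BMP4 effect in cells cultured alone also differed, by 3.64 ± 0.65 (limma adjusted p = 0.0154), as Dnmt3b had 95.4 FPKM on average with BMP4 in iPSC alone, against 174 FPKM without, a difference of -0.93 that did not pass (limma adjusted p = 0.831). Here 2 of 9 genes passed, against 2.79% of all genes, the other being Dnmt1 at -1.88 ± 0.38 (limma adjusted p = 0.0247). Both BMP4 interactions were lost without single libraries. For Dnmt3b these were replicate 1 or 2 of iPSC alone or replicate 2 of iPSC with BMP4 (adjusted p from 0.0678 to 0.0795). For Dnmt1 they were either library of iPSC alone, either of iPSC with BMP4, or replicate 1 of TSC alone or of TSC with BMP4 (adjusted p from 0.0533 to 0.0983). The interaction of BMP4 with lineage in assembled parts called 0 of 9 genes (0.0746% of all genes), that of BMP4 with assembly in iPSC 0 of 9 (0.0224%) and that in TSC 0 of 9 (1.75%), with 0, 0 and 3 of the 9 under an unadjusted p of 0.05. In the last of these Dnmt3b stood at -2.27 (limma adjusted p = 0.0949) and Dnmt1 at 1.39 (limma adjusted p = 0.0849).

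**Figure D3:**
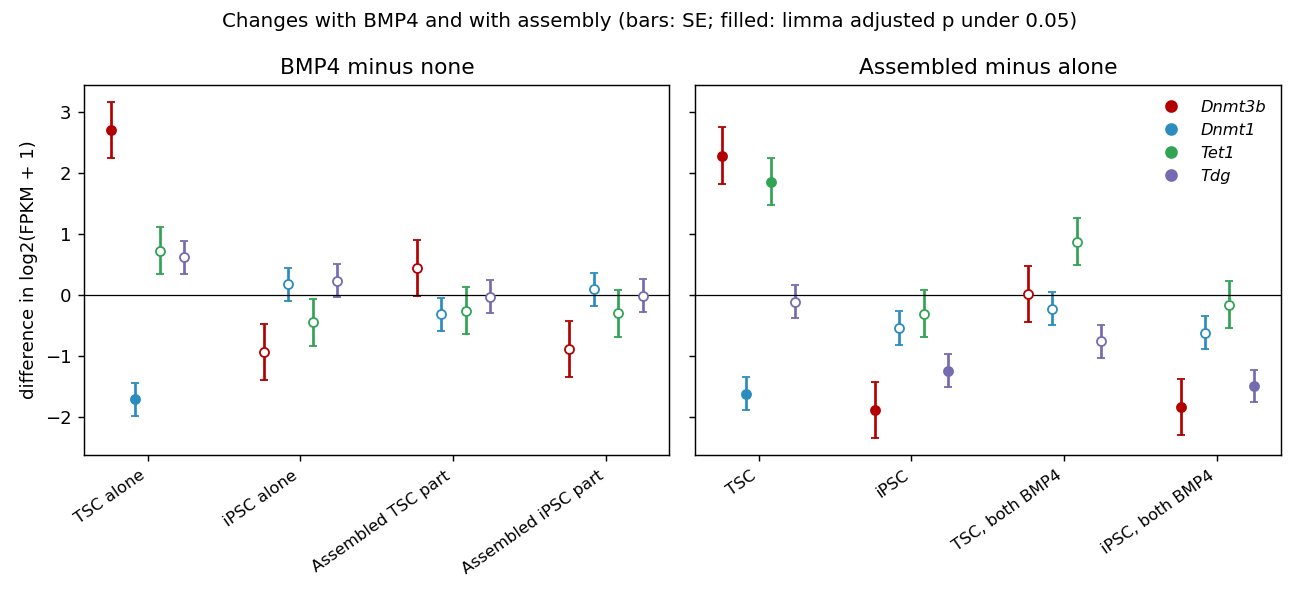
Differences in log2(FPKM + 1) with SE (bars) for Dnmt3b, Dnmt1, Tet1 and Tdg, with BMP4 minus none on the left and assembled minus alone on the right, filled where the limma adjusted p is under 0.05. Dnmt3b lies at 2.71 with BMP4 in TSC alone and at -0.93 in iPSC alone. Without BMP4 its assembly effect is positive in TSC (2.29) and negative in iPSC (-1.89), and with BMP4 on both it is 0.02 and -1.84.

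Dnmt3a, the other de novo methyltransferase, was lower in TSC-origin cells in each setting. It had 19.6 and 9.79 FPKM in TSC alone, against 37.9 and 54.2 FPKM in iPSC alone. With BMP4 it had 6.45 and 9.32 FPKM in TSC, against 28.6 and 17.2 FPKM in iPSC. In the assembled structures the TSC part had 3.63 and 6.52 FPKM, against 21.6 and 11.4 FPKM in the iPSC part, and with BMP4 the TSC part had 3.71 and 2.99 FPKM, against 14.3 and 16.5 FPKM. No TSC-origin library reached its iPSC-origin counterparts in any of the 4 settings. The differences were -1.64 and -1.40 in cells cultured alone without and with BMP4 (limma adjusted p = 0.00701 and 0.0298) and -1.50 and -1.92 between assembled parts without and with BMP4 (limma adjusted p = 0.0229 and 0.0105), each with an SE of 0.40. Each of the 4 calls was lost without some single library, while the mean of the 4, -1.62 ± 0.20 (limma adjusted p = 3.3e-05), passed under every alternative run. The libraries were replicate 2 of iPSC alone or of TSC alone (both adjusted p = 0.0692), replicate 1 of iPSC with BMP4 and replicates 1 and 2 of TSC with BMP4 (0.226, 0.159 and 0.0514), replicate 1 of the assembled iPSC part or of the assembled TSC part (0.189 and 0.178), and replicate 2 of the assembled TSC part with BMP4 (0.07). Without a filter on low values the third had adjusted p = 0.0532 and the second 0.0644, where quantile normalization gave 0.0504.

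Dnmt3a also fell with assembly. In TSC the difference was -1.34 ± 0.40 without BMP4 (limma adjusted p = 0.0355), while with BMP4 it was -1.02 and did not pass (limma adjusted p = 0.277), and the mean over both media was -1.18 ± 0.28 (limma adjusted p = 0.0156). In iPSC it was -1.47 ± 0.40 without BMP4 (limma adjusted p = 0.0333). With BMP4 it was -0.50 and did not pass (limma adjusted p = 0.469), and the mean was -0.99 ± 0.28 (limma adjusted p = 0.0232). Quantile normalization ended the calls without BMP4 and the mean in iPSC (adjusted p = 0.0565 in TSC, 0.0873 in iPSC and 0.105 for the mean). The call in TSC was also lost without replicate 1 of TSC alone (0.212) or of the assembled part (0.227), and its mean without replicate 2 of TSC with BMP4 (0.0666) or replicate 1 of the assembled part (0.0583). The call in iPSC was lost without replicate 1 or 2 of iPSC alone (0.0894 and 0.222) or replicate 2 of the assembled part (0.275), and its mean without any 1 of 4 libraries (0.0643 to 0.102). These 4 were replicate 2 of iPSC alone, replicate 1 of iPSC with BMP4, replicate 2 of the assembled iPSC part and replicate 1 of that part with BMP4.

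The balance of the de novo enzymes set TSC alone apart. The ratio of Dnmt3b to Dnmt3a FPKM was 0.454 and 0.400 in TSC alone, the only libraries in which Dnmt3a exceeded Dnmt3b. In the other 6 TSC-origin libraries it ran from 5.33 to 13.6, and in the 8 iPSC-origin libraries from 1.05 to 4.58. The sum of Dnmt3a and Dnmt3b over Dnmt1 was 0.627 and 0.393 in TSC alone, against 2.43 to 16.1 in the other 14 libraries. Dnmt3c, a tandem copy of Dnmt3b in mouse and a separate entry of the table, lay between 0.112 and 2.49 FPKM, and the antisense entry Dnmt3bos between 0 and 4.61 FPKM. As no source used here names the counting program, reads shared by these entries may have been split.

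Dnmt3l, the cofactor of the de novo enzymes, had the widest spread between replicates. In TSC it had 66.8 and 17.9 FPKM in the assembled part with BMP4, 32.4 and 43.6 FPKM in the assembled part, 20.5 and 24.3 FPKM in TSC with BMP4 and 0.0525 and 14.5 FPKM in TSC alone. In iPSC it had 1.35 and 10.7 FPKM in the assembled part with BMP4, 20.0 and 9.77 FPKM in the assembled part, 30.6 and 28.0 FPKM in iPSC with BMP4 and 8.99 and 22.0 FPKM in iPSC alone. The 2 libraries of TSC alone lay far apart, with replicate 1 the lowest of the series and replicate 2 in the middle of its range. The 1 call was a rise with assembly in TSC, by 3.26 ± 1.03 (limma adjusted p = 0.0437), and without replicate 1 of TSC alone it was 1.32 (limma adjusted p = 0.342). It was also lost without replicate 1 or 2 of the assembled TSC part (adjusted p = 0.13 and 0.162). The difference between TSC alone and iPSC alone was -1.91 and did not pass (limma adjusted p = 0.17). Without replicate 1 of TSC alone it was 0.03 (limma adjusted p = 0.991), and without replicate 2 of TSC alone it was -3.85 (limma adjusted p = 0.00763). With BMP4 in TSC alone Dnmt3l differed by 2.53 (limma adjusted p = 0.132). Between assembled parts with BMP4 it differed by 2.78 (limma adjusted p = 0.113), with no overlap of the libraries.

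Tet1, the TET enzyme typical of pluripotent mouse cells, separated the lineages completely. The 8 TSC-origin libraries ran from 0.00537 to 4.79 FPKM with a median of 2.15, against 5.13 to 12.5 FPKM with a median of 7.58 in the 8 iPSC-origin libraries. In TSC alone Tet1 had 0.00537 and 1.31 FPKM, against 12.5 and 7.82 FPKM in iPSC alone. With BMP4 it had 1.52 and 1.54 FPKM in TSC, against 7.48 and 6.57 FPKM in iPSC. The difference was -2.84 ± 0.38 without BMP4 (limma adjusted p = 0.000154), which held without any 1 library. With BMP4 it was -1.66 ± 0.38 (limma adjusted p = 0.0108). That call was lost without replicate 1 of iPSC with BMP4 (adjusted p = 0.0778) and with a pseudocount of 0.1 (0.0995).

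Assembled TSC parts held more Tet1 than TSC alone. They had 2.75 and 4.76 FPKM with BMP4 and 4.79 and 4.30 FPKM without, above all 4 libraries of TSC cultured alone. Tet1 rose by 1.86 ± 0.38 without BMP4 (limma adjusted p = 0.00636) and by 1.37 ± 0.27 over both media (limma adjusted p = 0.00651), while the difference with BMP4 was 0.88 and did not pass (limma adjusted p = 0.322). Both calls held without any 1 library and without the pair that carried markers of the other lineage, and a fit of only the 4 libraries compared gave adjusted p = 0.13 for the first. In the assembled iPSC part Tet1 had 5.13 and 7.44 FPKM with BMP4 and 8.04 and 7.68 FPKM without, levels that overlapped those of iPSC alone. The assembled parts differed by -0.68 without BMP4 and by -0.63 with it, and neither passed (limma adjusted p = 0.258 and 0.344). The interaction of assembly with lineage was 1.60 ± 0.38 (limma adjusted p = 0.038), but leaving out any 1 of 13 libraries ended it (adjusted p from 0.0527 to 0.0971). The 3 exceptions were both libraries of TSC alone and replicate 2 of the BMP4-treated assembled iPSC part. Either rescaling also ended it (adjusted p = 0.0692 and 0.0586), as did a pseudocount of 0.1 (0.0943).

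Tet3 showed the opposite order at a low level. It had 6.06 and 2.38 FPKM in TSC alone, against 0.634 and 0.478 FPKM in iPSC alone. It had 0.894 and 0.633 FPKM in the assembled TSC part with BMP4, 0.601 and 1.10 FPKM in that without and 0.760 and 1.54 FPKM in TSC with BMP4, and the 6 iPSC-origin libraries outside iPSC alone ran from 0.108 to 0.826 FPKM. Both libraries of TSC alone stood above the other 14, and only 4 of 16 libraries reached 1 FPKM. Tet3 was higher in TSC alone than in iPSC alone by 1.65 ± 0.35 (limma adjusted p = 0.00305), a call that held without any 1 library. It fell with assembly in TSC (-1.41 ± 0.35, limma adjusted p = 0.0159) and with BMP4 in TSC alone (-1.21 ± 0.35, limma adjusted p = 0.0434). Without replicate 1 of TSC alone those values were -0.88 and -0.68 (limma adjusted p = 0.108 and 0.241). They were also lost without replicate 1 of the assembled TSC part (0.112) or replicate 1 of TSC with BMP4 (0.246), and a pseudocount of 0.1 gave 0.0545 for assembly and 0.13 for BMP4.

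Tet2 was the lowest of the 9 genes and passed the filter through TSC alone only. It had 1.22 and 1.35 FPKM in TSC alone, against 0.306 and 0.442 FPKM in iPSC alone, and at most 0.853 FPKM in the other 12 libraries. As TSC alone decided whether Tet2 was tested, its difference there of 0.74 ± 0.26 (limma adjusted p = 0.0403) is partly fixed by the filter. It was lost without any 1 of the 4 libraries compared (adjusted p from 0.079 to 0.162). Tet1 made up 0.0737% and 26.0% of the summed TET FPKM in TSC alone. It made up 39.1 to 82.7% in the other TSC-origin libraries, against 85.8 to 95.6% in iPSC-origin libraries, with no overlap between the lineages.

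**Figure D4:**
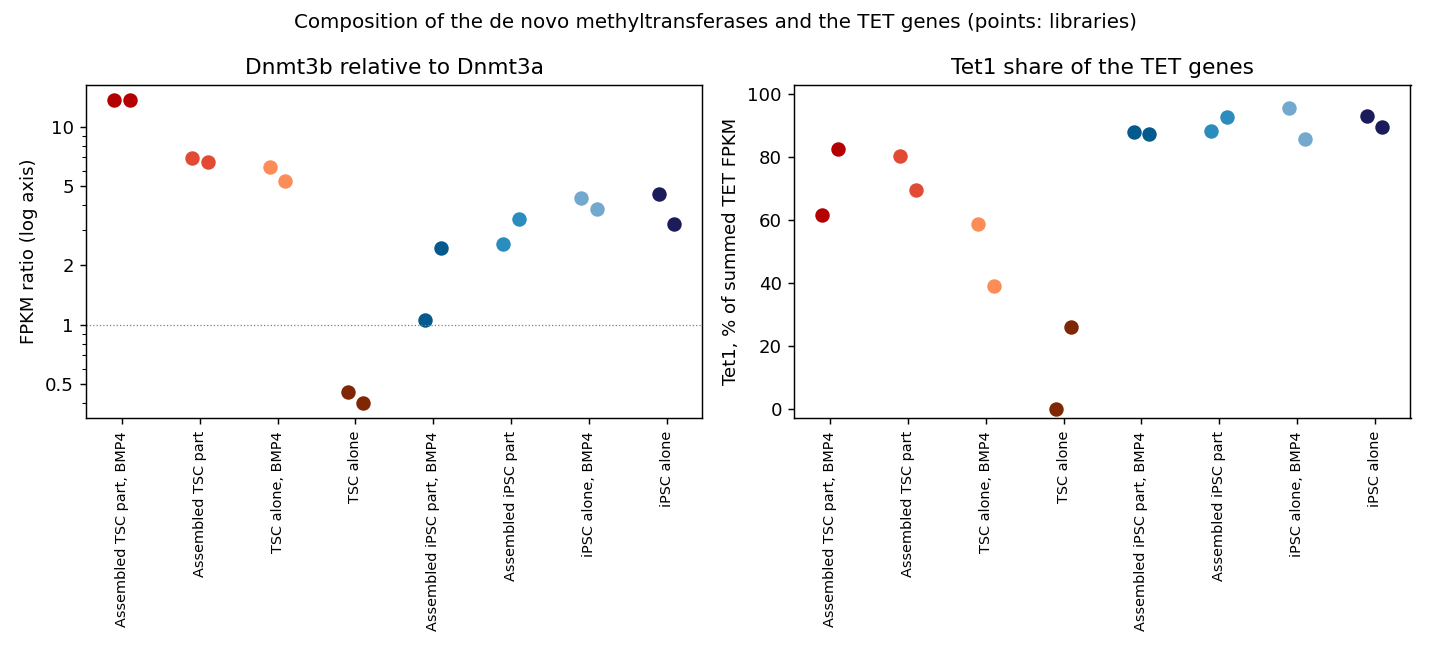
Left, the FPKM ratio of Dnmt3b to Dnmt3a on a log axis with 1 dotted, and right, Tet1 as a percent of the summed FPKM of Tet1, Tet2 and Tet3, in each of the 16 libraries by group. TSC alone lies below 1 on the left (0.454 and 0.400), and on the right every TSC-origin library lies at or below 82.7% while no iPSC-origin library lies below 85.8%.

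Tdg, the glycosylase that removes oxidised methylcytosine, was highest in iPSC cultured alone. It had 19.9 and 23.7 FPKM in TSC alone, against 62.0 and 78.6 FPKM in iPSC alone. With BMP4 it had 25.8 and 44.6 FPKM in TSC, against 79.3 and 85.8 FPKM in iPSC. The difference was -1.64 ± 0.27 without BMP4 (limma adjusted p = 0.000585), which held without any 1 library. With BMP4 it was -1.26 ± 0.27 (limma adjusted p = 0.00754), a call lost without replicate 2 of iPSC with BMP4 (adjusted p = 0.056) or replicate 1 of TSC with BMP4 (0.0624).

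Assembled iPSC parts had less Tdg, with 34.5 and 23.9 FPKM with BMP4 and 31.6 and 26.5 FPKM without, against 61.98 FPKM or more in all 4 libraries of iPSC cultured alone. Tdg fell without BMP4 (-1.24 ± 0.27, limma adjusted p = 0.0142) and with it (-1.49 ± 0.27, limma adjusted p = 0.018). The mean, -1.37 ± 0.19 (limma adjusted p = 0.000731), passed under every alternative run. The first was lost without replicate 1 or 2 of iPSC alone (adjusted p = 0.0584 and 0.123) or replicate 2 of the assembled part (0.133), and the second without either library of iPSC with BMP4 (0.138 and 0.124). Without both libraries that carried markers of the other lineage the second had adjusted p = 0.054. The assembled TSC part had 20.1 and 19.3 FPKM with BMP4 and 19.7 and 20.5 FPKM without, and without BMP4 overlapped TSC alone. Between the assembled parts Tdg differed by -0.51 and -0.52 without and with BMP4, neither of which passed (limma adjusted p = 0.229 and 0.258). The pseudogene entry Tdg-ps lay between 1.10 and 2.96 FPKM.

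Around these enzymes, genes that work with them moved in several directions between the lineages. The lists were chosen with earlier results of these data known. Of 21 partners and regulators of the enzymes tested, 4 were higher and 7 lower in TSC-origin cells averaged over the 4 settings, with a median of -0.13. That is 11 of 21, close to the 48.8% of all genes called in this comparison. Dppa3, which protects the oocyte genome from methylation by keeping Uhrf1 away, averaged 1.41 FPKM in TSC-origin and 23.7 FPKM in iPSC-origin cells (-3.73 ± 0.31, limma adjusted p = 1.33e-06). Most of the TSC-origin level came from replicate 2 of the assembled TSC part, at 8.26 FPKM, and without it the TSC-origin mean was 0.438 FPKM and the difference -4.06. No other TSC-origin library reached 1 FPKM of Dppa3. It therefore entered the test through iPSC-origin libraries, and its direction is partly fixed by the filter. Gadd45b, a stress gene linked to demethylation, averaged 35.5 FPKM against 8.18 FPKM (1.87 ± 0.23, limma adjusted p = 3.05e-05). It was highest in TSC alone (77.6 and 59.6 FPKM). With BMP4 the assembled parts overlapped, at 6.33 and 18.5 FPKM in the TSC part and 5.39 and 11.6 FPKM in the iPSC part. Of 16 genes of methyl donor metabolism, 3 were higher and 9 lower, with a median of -0.45. Ahcy, which hydrolyses S-adenosylhomocysteine, averaged 57.5 FPKM against 99.2 FPKM (-0.80 ± 0.11, limma adjusted p = 6.31e-05). Idh2, a mitochondrial source of the 2-oxoglutarate that TET enzymes need, averaged 144 FPKM against 44.3 FPKM (1.62 ± 0.15, limma adjusted p = 2.76e-06). Of 13 base excision repair genes 4 were higher and 3 lower, and of 7 readers of methylated DNA 3 were higher and 1 lower, both also near the 48.8% of all genes.

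Of 11 germline genes that promoter methylation is known to silence in mouse somatic cells, 1 was higher and 6 were lower in TSC-origin cells, with a median of -0.58 against -0.01 for all genes, of which 48.8% were called. Ddx4, a germ cell helicase, averaged 0.282 FPKM in TSC-origin and 6.60 FPKM in iPSC-origin cells (-2.38 ± 0.15, limma adjusted p = 2.43e-07). Mael, a factor of transposon silencing in germ cells, averaged 0.226 FPKM against 7.23 FPKM (-2.72 ± 0.22, limma adjusted p = 1.24e-06). The 11 are those of 18 listed that passed the filter, which low genes pass only through libraries where they are high. Ddx4 had at most 0.635 FPKM in TSC-origin libraries. Mael reached 1 FPKM there only in replicate 2 of the assembled TSC part (1.15 FPKM). Both therefore entered the test through iPSC-origin libraries, and their direction is partly fixed by the filter. The counts were again 1 and 6 after upper quartile rescaling and without the pair of libraries that carried markers of the other lineage.

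With assembly, Trim28 rose in TSC without BMP4 and in iPSC averaged over both media. Trim28, the corepressor that recruits methyltransferases to imprinted regions and transposons, averaged 317 FPKM in the assembled TSC part and 111 FPKM in TSC alone (1.46 ± 0.24, limma adjusted p = 0.00191). It averaged 375 FPKM in assembled iPSC parts and 116 FPKM in iPSC cultured alone (1.68 ± 0.17, limma adjusted p = 0.000389). Zfp57, the zinc finger protein that guides Trim28 to imprinted regions, averaged 24.3 FPKM in the assembled TSC part and 3.60 FPKM in TSC alone (2.51 ± 0.30, limma adjusted p = 0.000303). With BMP4 in TSC alone it averaged 24.2 FPKM, against the same 3.60 FPKM (2.51 ± 0.30, limma adjusted p = 0.000401). Of the 21 partners, 4 rose and 0 fell with assembly in TSC without BMP4, where 19.2% of all genes were called, and 4 rose and 1 fell with BMP4 in TSC alone, against 12.1%. Assembly in TSC with BMP4 on both gave 0 calls among the 21, against 0.298% of all genes. There Trim28 had 279 and 338 FPKM in the assembled part, against 156 and 113 FPKM in TSC. Zfp57 had 35.2 and 27.4 FPKM, against 24.4 and 24.0 FPKM. In assembled iPSC parts averaged over both media 4 rose and 4 fell, against 26.6%. After upper quartile rescaling the last count was 6 that rose and 2 that fell, while the 26.6% is a share before rescaling.

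Of 20 S-phase genes, whose transcripts mark replicating cells as those of Dnmt1 and Uhrf1 do, 0 rose and 11 fell in assembled iPSC parts, with a median of -0.60 against -0.19 for all genes, of which 20.6% were lower there. Mcm6, a subunit of the replicative helicase, averaged 40.9 FPKM in assembled iPSC parts and 120 FPKM in iPSC cultured alone (-1.54 ± 0.21, limma adjusted p = 0.000693). After upper quartile rescaling 2 rose and 8 fell, while the 20.6% is a share before rescaling. Pcna, the replication clamp, which was listed among the partners, was higher in the same parts, at 488 FPKM against 333 FPKM in iPSC cultured alone (0.55 ± 0.13, limma adjusted p = 0.0106). That call was lost without replicate 1 of iPSC with BMP4 (adjusted p = 0.0536) or replicate 2 of the assembled iPSC part (0.0527). The S-phase genes moved beside the lower Dnmt1 and Uhrf1 of the same parts, and their part in that result was not tested. In assembled TSC parts without BMP4, 1 of the 20 rose and 2 fell, against 19.2% of all genes called. With BMP4 in TSC alone 1 rose and 0 fell, against 12.1% of all genes. Of 13 base excision repair genes, 0 rose and 6 fell in assembled iPSC parts, among them Xrcc1, a scaffold of strand break repair, at 7.07 FPKM in assembled parts and 27.4 FPKM in iPSC cultured alone (-1.88 ± 0.25, limma adjusted p = 0.000678). Of 16 methyl donor genes 0 rose and 5 fell there, and after upper quartile rescaling 0 rose and 2 fell. Before rescaling, the repair and methyl donor counts stand against 26.6% of all genes called in either direction and 20.6% lower.

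Over the 8 group means, some genes outside the set followed single members closely. Among 8343 candidates with a group mean of at least 5 FPKM, those with the highest Pearson correlations of log2(FPKM + 1) were taken for each member. For Dnmt1 they were Samd10, Plcg2 and Mtmr12 (0.995, 0.983 and 0.979), and for Uhrf1 Supv3l1 and Rnf40 (0.995 and 0.992). Dnmt3a was followed most closely by Ttc23, H2-Q10 and Kmt5c (0.983, 0.983 and 0.967). Those of Dnmt3b were G3bp2, Mat2a and Krr1 (0.986, 0.98 and 0.978), among which Mat2a makes the methyl donor S-adenosylmethionine. Dnmt3l had Bloc1s6, Snupn and Noc4l (0.969, 0.948 and 0.944). Tet1 was matched by Eng, Dcbld1 and Rraga (0.992, 0.989 and 0.982), Tet2 by Serhl, Git2 and Dgke (0.987, 0.984 and 0.983) and Tet3 by Rxra and Sfxn3 (0.995 and 0.989). For Tdg the genes were Eif3j1, Wdr74 and Ruvbl2 (0.992, 0.991 and 0.99). These are descriptions over 8 points that share their libraries and include 1 group, TSC alone, at the end of the range for most of the genes.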

How the data were processed

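RNA was measured in 16 mouse libraries of 8 groups. The values are the deposited FPKM, 1 column per library for 31663 entries, of which 12 share a symbol with another entry. Per the submitters' processing notes, the authors used CASAVA and TopHat2 with the builds mm9 and hg19. How FPKM was computed, and from which annotation, is not given in the sources used here. Without depth, no value carries a counting interval.

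The 13406 genes that reached 1 FPKM in 2 or more libraries were fitted as log2(FPKM + 1) with limma 3.58.1 in R 4.3.3 (8 group means, 8 residual degrees of freedom, intensity trend), two-sided, with Benjamini-Hochberg adjustment over the genes of each comparison and a threshold of 0.05. Differences are on the log2(FPKM + 1) scale, which understates the change of low genes. The 21 comparisons were 12 between pairs of groups, 5 combined and 4 interactions of BMP4 with lineage or assembly, the last chosen after values were seen. The fit was tested on simulated data.

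The members and the 9 gene lists were chosen with earlier results of these data known. All 9 members are named whatever their result, as are the 3 genes most correlated with each member over group means, of which 2 are not reported here. From the lists, genes among the 4 with the smallest adjusted p past the threshold are named. The alternatives tried were upper quartile rescaling, quantile normalization, fitting without a filter, 0.1 as pseudocount, a block for replicate number, only the groups compared, and leaving out each library or the pair with markers of the other lineage. Promoters were read from RefSeq (GRCm38.p6). Figures were drawn with matplotlib 3.10.9, and tables were made with pandas 2.3.3, numpy 2.4.6 and Python 3.11.15.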

Additional observations from a re-analysis of the deposited data

Results flagged for a closer look

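In 4 results the same contrast gave different effects in TSC and iPSC, by a limma interaction with an adjusted p under 0.05. Averaged over both media, the effect of assembly on Dnmt3b was 3.02 higher in TSC than in iPSC on the log2 scale, and that on Tet1 was 1.60 higher. The effect of BMP4 in cells cultured alone was 3.64 higher in TSC than in iPSC for Dnmt3b and -1.88 for Dnmt1. In each of the 4, TSC alone lay at an end of the range of all 8 groups, at the top for Dnmt1 and at the bottom for Dnmt3b and Tet1, and its replicate 1 had Tet1 at 0.00537 FPKM, against 1.31 FPKM in replicate 2. The difference for Dnmt3b with assembly passed without each of the 16 libraries in turn, while the other 3 were lost without some of them.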

How the results depend on the processing

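Of 189 differences of the 9 genes, 46 passed, and none of the 46 changed sign under any alternative. The number kept was 39 of 46 with a pseudocount of 0.1, 32 without a filter, 38 after quantile normalization, 36 after upper quartile rescaling, 43 with the replicate block, 21 of the 28 that involve them without the pair of libraries with markers of the other lineage, and 8 of the 26 that could be fitted on only the groups compared, which leaves 2 residual degrees of freedom. Leaving out each library in turn, 19 of 46 were kept throughout. Of the 143 that did not pass, 56 changed sign and 14 passed under some alternative.

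Counts of the 9 genes that moved by more than 1.5 times were these. Between assembled parts the count was 0 without a filter and 0 on only the groups compared, and with BMP4 0 on only those. Between cells cultured alone with BMP4 it was 1 on only the groups compared. For assembly of iPSC it was 1 without a filter or after upper quartile rescaling. With BMP4 it was 1 without a filter, after either rescaling, with the replicate block or without the pair, and 0 on only the groups compared. On only the groups compared it was 0 for assembly and 0 for BMP4 in TSC. The iPSC assembly mean gave 2 without a filter or after either rescaling, and the TSC assembly mean 3 without a filter or without the pair. The assembly interaction gave 1 with a pseudocount of 0.1, without a filter or after either rescaling.

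Without 1 library the counts ran from 5 to 6 for TSC against iPSC alone and from 1 to 3 with BMP4. They ran from 0 to 1 between assembled parts and from 0 to 2 with BMP4, from 0 to 2 for assembly of iPSC without or with BMP4, from 3 to 6 for assembly and from 2 to 5 for BMP4 in TSC. They ran from 5 to 7 for the lineage mean, from 2 to 4 and from 2 to 6 for the assembly means of iPSC and TSC, and from 1 to 4 for the assembly interaction. The BMP4 interactions gave 0 to 2 with lineage in cells cultured alone and 0 to 1 with assembly in TSC. Dnmt3l in TSC against iPSC alone reversed to 0.0327 without replicate 1 of TSC alone, and was -3.85 without replicate 2.

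Over all genes, only the groups compared gave 8 calls in place of 1359 between assembled parts with BMP4, 2 in place of 767 for assembly of iPSC with BMP4, 3 in place of 2575 for assembly and 3 in place of 1625 for BMP4 in TSC. Without 1 library the lowest counts were 3087 in place of 4878 for TSC against iPSC alone, 954 in place of 2436 with BMP4, 902 in place of 2271 between assembled parts, 6 in place of 1585 for assembly of iPSC and 109 in place of 557 for the assembly interaction. The numbers of same-numbered libraries did not pair them: over 28 pairs of groups their deviations correlated from -0.185 to 0.119, with 2 pairs over 0.1. With 2 libraries a group and unknown depth, differences that did not pass are not shown to be absent.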
